A study of Mus musculus with 27 samples.

Results

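The 9 genes described here are feedback inhibitors of the extracellular signal-regulated kinase (ERK) pathway. They are the MAP kinase phosphatases *Dusp4*, *Dusp5* and *Dusp6*, the Sprouty genes *Spry1*, *Spry2* and *Spry4*, and the Spred genes *Spred1*, *Spred2* and *Spred3*. They were chosen by name from what their proteins do, not by their measured values, although earlier results of these data were known. They make up 9 of the 22222 genes with a locus in the deposited files. All 9 were measured and tested in each of 3 RNA-seq experiments, among 11300, 10563 and 9563 tested genes.

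In this pathway, growth factor receptors activate Ras through the adaptor Grb2, Ras activates Raf, Raf activates MEK, and MEK phosphorylates and activates ERK. ERK then induces genes whose products switch the pathway off again. Dual-specificity phosphatases remove phosphate from ERK itself, whereas Sprouty and Spred proteins act upstream, between the receptor, Ras and Raf. In fibroblasts, which respond strongly to serum growth factors, transcript levels of these inhibitors are widely read as a gauge of ERK activity. PD0325901 is an inhibitor of MEK.

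The cells were *Setdb1* cKO iMEFs, immortalized mouse embryonic fibroblasts that derive from a single recloned line, in which 4-hydroxytamoxifen (4OHT) triggers deletion of the histone H3K9 methyltransferase gene *Setdb1*. All groups, controls included, carry the conditional allele. The inhibitor experiment held 10 libraries in 5 groups of 2: untreated, TSA (the histone deacetylase inhibitor trichostatin A, at 150 nM for 24 h), PD0325901 (1 µM for the last 24 h), 4OHT day 6, and 4OHT + PD0325901 (collected on day 6). The siRNA experiment held 8 libraries in 4 groups of 2, with control siRNA (siCtrl) or siRNA against the DNA methyltransferase gene *Dnmt1* (siDnmt1), each without 4OHT or 6 days after its addition. The total RNA experiment held 9 libraries in 3 groups of 3: untreated, 5 days after the start of 4 days of 4OHT, and long-term knockout (KO) cells, which the labels place more than 2 weeks after 4OHT. Nothing in the labels says that replicates came from separate cultures, so p-values measure the spread between these libraries, which may be technical.

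Levels are given in FPKM, fragments per kilobase of transcript scaled to library size, a unit per transcript length, so levels of different genes can be compared within a library. Deposited intervals implied depths of about 37100000 to 42500000 fragments in total RNA libraries, 13900000 to 15800000 in siRNA libraries and 11100000 to 12900000 in inhibitor libraries. The experiments were prepared differently and each was tested apart. *Setdb1* was listed at 0 FPKM in 4OHT day 6 replicate 1 and in both 4OHT + PD0325901 libraries, at 5.30 in 4OHT day 6 replicate 2, and at 5.34 to 10.1 in the 6 other inhibitor libraries, and it did not pass in any comparison of cells 5 or 6 days after 4OHT with their controls. In the libraries labelled long-term KO it was 6.96 to 7.32 FPKM, above the 5.16 to 5.95 FPKM of untreated cells without passing (0.37, adjusted p = 0.0773, limma), and it passed as higher than at day 5 (0.56, adjusted p = 0.0166, limma). A level summed over the whole gene does not measure the deleted part alone, so it does not check these labels. The interferon-induced gene *Irf7* stood at 99.5 to 321 FPKM in the 4 libraries of the inhibitor experiment that received 4OHT, against 1.23 to 8.11 FPKM in the others. The file of PD0325901 replicate 2 carries a title line that names 4OHT as well, whereas its description line and its GEO label do not. Its *Irf7* level was 4.02 FPKM, next to 4.75 in PD0325901 replicate 1, and results that rest on it are also given without it. In the siRNA experiment, *Irf7* was 14.6 FPKM in 4OHT + siCtrl replicate 2, below both siCtrl libraries (21.2 and 21.5), and 279 FPKM in 4OHT + siCtrl replicate 1, so these replicates stand far apart. Of 9 fibroblast markers, 6 to 8 reached 1 FPKM in every library, while *Pdgfra* had no usable locus, and at most 1 of 4 endothelial, 1 of 4 blood and 1 of 3 pluripotency markers did so. Up to 3 of 4 epithelial markers did so, and their summed level reached 86.2 FPKM, in 4OHT + siDnmt1 replicate 1.

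The test throughout was limma on log2(FPKM + 0.1), two-sided, with Benjamini-Hochberg adjustment over all genes of an experiment. A gene passed at an adjusted p under 0.05, and fold changes are given as log2 values on that scale, with standard errors (SE). "Rose" and "fell" are used only for genes that passed. A pseudocount of 0.1 understates the change of genes below about that level.

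Promoter sequences, 250 bases before and 50 after the transcription start, were found in RefSeq (GRCm38.p6) for 7 of the 9 genes, and for neither *Dusp4* nor *Spry4*. They were searched on both strands for the letters of sites known for ERK-responsive factors: the CArG box of serum response factor, the AP-1 site TGANTCA, the Ets site CCGGAAG and the CRE TGACGTCA. In all 32851 mouse promoters of that table, these are held by 1.63%, 7.81%, 8.86% and 1.79%. Only the *Dusp5* window held a match. It has 2 adjoining CArG boxes, CCATATTTGG from -82 to -73 and CCTTATATGG from -72 to -63 relative to the start site. *Dusp5*, with the matches in capitals, is shown with *Dusp6*, the most abundant of the 9 genes in untreated cells, and *Spry1*, the gene that did not pass under PD0325901. *Dusp5* is at chr19:53528895-53529194 (+ strand), *Dusp6* at chr10:99262981-99263280 (+ strand) and *Spry1* at chr3:37639697-37639996 (+ strand).
Dusp5: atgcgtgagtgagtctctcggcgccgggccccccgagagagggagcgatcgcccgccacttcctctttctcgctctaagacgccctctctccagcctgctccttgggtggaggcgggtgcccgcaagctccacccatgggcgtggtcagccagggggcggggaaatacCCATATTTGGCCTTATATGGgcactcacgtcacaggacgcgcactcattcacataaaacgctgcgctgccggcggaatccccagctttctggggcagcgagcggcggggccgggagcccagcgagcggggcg
Dusp6: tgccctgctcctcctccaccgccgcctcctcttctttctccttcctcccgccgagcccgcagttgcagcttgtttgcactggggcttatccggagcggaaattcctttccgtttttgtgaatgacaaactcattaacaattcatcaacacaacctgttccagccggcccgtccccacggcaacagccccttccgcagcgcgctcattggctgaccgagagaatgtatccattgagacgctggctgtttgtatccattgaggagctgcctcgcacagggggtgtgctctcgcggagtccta
Spry1: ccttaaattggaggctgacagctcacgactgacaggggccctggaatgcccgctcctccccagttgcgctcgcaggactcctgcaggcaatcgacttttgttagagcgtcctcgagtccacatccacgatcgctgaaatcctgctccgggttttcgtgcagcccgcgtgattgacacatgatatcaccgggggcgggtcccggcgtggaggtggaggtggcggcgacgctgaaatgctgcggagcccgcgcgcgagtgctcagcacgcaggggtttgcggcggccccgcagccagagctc
A match describes letters, not a bound site. GC content was 66.7% for *Dusp5*, 57.3% for *Dusp6* and 64.3% for *Spry1*, and the median of all promoters was 52.7%.

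In the mm9 build used for the deposited files, *Dusp4* lies at chr8:35870664-35882948, *Dusp5* at chr19:53603808-53616848 and *Dusp6* at chr10:98725865-98730123. *Spry1* lies at chr3:37538869-37543521, *Spry2* at chr14:106291164-106296036 and *Spry4* at chr18:38745919-38760922. *Spred1* lies at chr2:116946807-117008013, *Spred2* at chr11:19824445-19922600 and *Spred3* at chr7:29943848-29953666. In untreated cells of the inhibitor experiment, *Dusp6* was the highest of the 9 at 45.5 ± 1.47 FPKM (mean ± SD, n = 2), followed by *Dusp5* (23.3 ± 2.30), *Spred1* (21.5 ± 0.0566), *Spred2* (16.3 ± 1.70) and *Spry2* (13.9 ± 0.422). Below these came *Spry4* (6.41 ± 0.223), *Spry1* (4.99 ± 0.161), *Spred3* (3.42 ± 0.445) and *Dusp4* (0.500 ± 0.0131). No neighbours in this order overlapped in their 2 libraries, although the highest *Spred1* library (21.5) and the lowest *Dusp5* library (21.6) were almost level.

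The first comparison asks what 24 h of MEK inhibition does to these genes in cells that keep *Setdb1*. PD0325901 lowered 8 of the 9, all but *Spry1*. Over all genes, 7.78% fell. The median log2 fold change of the 9 was -1.88, beside -0.07 over all genes tested. The largest change was that of *Spry4* and the smallest that passed was that of *Spry2*. In all 8, no PD0325901 library reached the level of an untreated library, a separation that 38.2% of all genes showed in this direction.

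Of the phosphatases, *Dusp6*, which acts on ERK in the cytoplasm, stood at 44.5 and 46.6 FPKM in the untreated libraries and at 9.82 and 3.94 with PD0325901. The groups were far apart, and the PD0325901 replicates themselves differed more than the untreated ones. The log2 fold change was -2.85 (SE 0.38, adjusted p = 0.00398, limma), and the mean with PD0325901 was 15.1% of the untreated mean. *Dusp5*, which acts on ERK in the nucleus, went from 21.6 and 24.9 FPKM to 8.16 and 3.44. It fell by 2.11 on the log2 scale (SE 0.34, adjusted p = 0.00776, limma). *Dusp4*, a nuclear phosphatase with a wider range of MAP kinase substrates, was low even in untreated cells, at 0.509 and 0.491 FPKM. With PD0325901 it was 0.0327 and 0.0999 FPKM, and its log2 fold change was -1.88 (SE 0.31, adjusted p = 0.00843, limma). These values rest on 4 implied fragments with PD0325901 against 30 in untreated cells, a ratio of 0.132 with an exact 95% interval of 0.0337 to 0.374 that covers counting error only. *Dusp4* entered the test only through its TSA and 4OHT day 6 libraries, the only ones of this experiment above 1 FPKM, and either group alone would have admitted it. With a pseudocount of 1 its adjusted p was 0.0579.

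**Figure D1:**
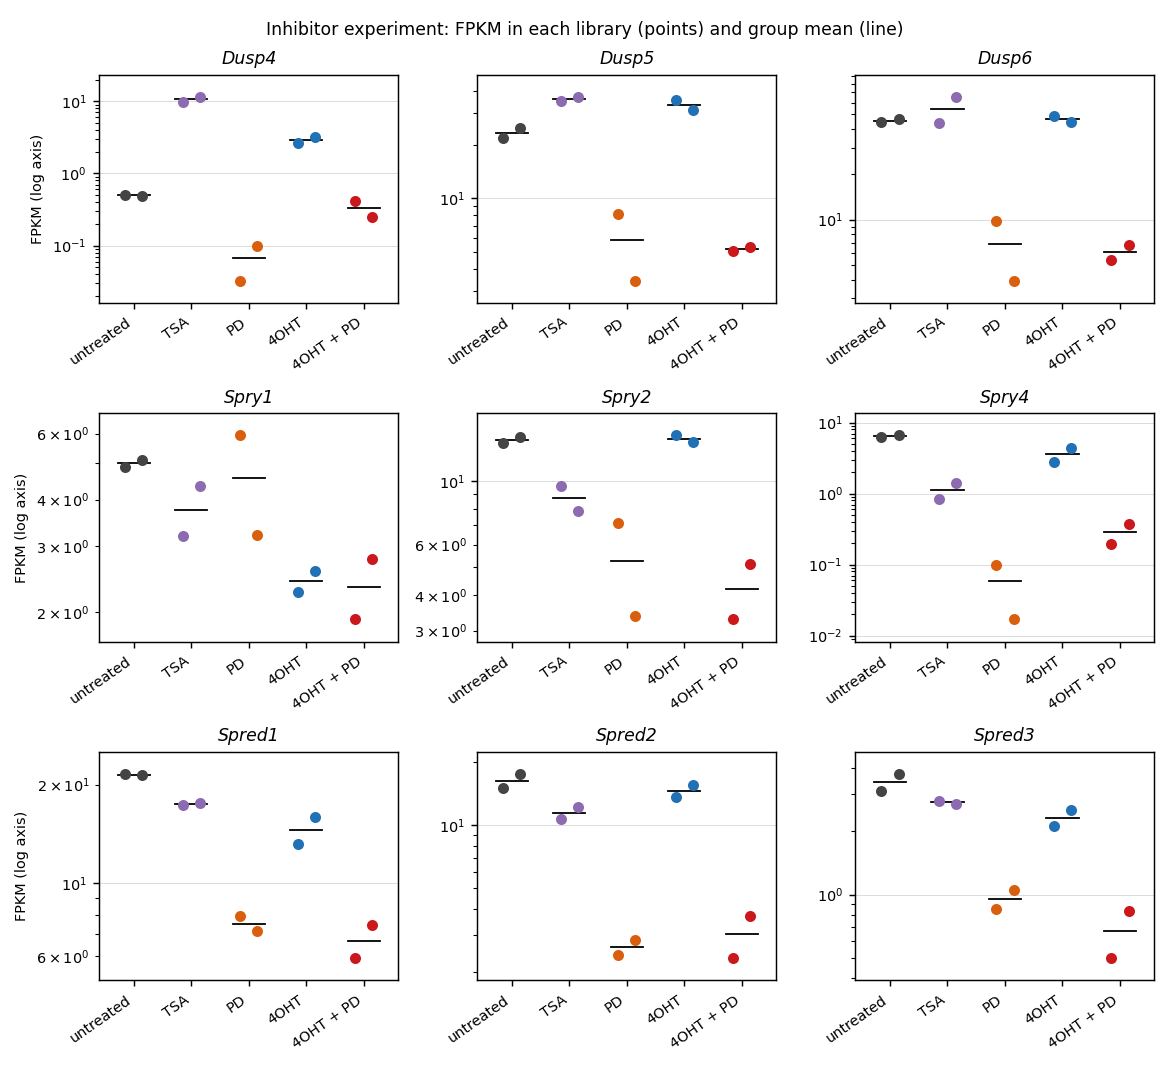
FPKM of the 9 genes in the 10 libraries of the inhibitor experiment, on a log axis that differs between panels. Each point is a library and each line the mean of a group of 2, and PD stands for PD0325901. In every panel but that of *Spry1*, both PD0325901 points lie below both untreated points and both 4OHT + PD0325901 points lie below both 4OHT points.

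Of the Sprouty genes, *Spry4*, which is known to restrain the step from Ras to Raf, came close to the limit of detection. It stood at 6.25 and 6.57 FPKM in untreated cells and at 0.0992 and 0.0169 with PD0325901, or 7 implied fragments against 720. The log2 fold change was -5.42 (SE 0.41, adjusted p = 0.000371, limma). By implied fragments, untreated cells held 110-fold more, with an exact 95% interval of 52.9 to 274 (counting error only). *Spry2*, which binds Grb2 and the ubiquitin ligase Cbl, was 13.7 and 14.2 FPKM against 7.13 and 3.38 with PD0325901. It fell by 1.48 (SE 0.34, adjusted p = 0.0292, limma) and was the member whose call was lost most often, for instance without PD0325901 replicate 2, where the adjusted p was 0.0749. *Spry1* was 4.88 and 5.11 FPKM in untreated cells and 5.93 and 3.21 with PD0325901. The PD0325901 libraries lay on either side of the untreated ones. Its log2 fold change was -0.19 (SE 0.32, adjusted p = 0.754, limma), with a 95% interval of -0.94 to 0.57 that does not hold the change of any other member. The deposited interval of *Spry1* in untreated replicate 1 is wide, from 0 to 10.5 FPKM.

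The Spred proteins bring the Ras inactivator neurofibromin to the membrane. *Spred2* showed the largest change of the 3, from 15.1 and 17.5 FPKM to 2.39 and 2.84 with PD0325901. The log2 fold change was -2.60 (SE 0.23, adjusted p = 0.000725, limma), with 16.0% of the untreated mean left. *Spred1* stood at 21.5 and 21.4 FPKM in untreated cells and at 7.92 and 7.14 with PD0325901. It fell by 1.50 (SE 0.15, adjusted p = 0.00123, limma) to 35.1% of the untreated mean, and was then the most abundant of the 9 by its mean. Its PD0325901 libraries overlapped those of *Dusp6*, so the order of these genes is not settled by 2 libraries. *Spred3* went from 3.10 and 3.73 FPKM to 0.855 and 1.06 and fell by 1.74 (SE 0.27, adjusted p = 0.00752, limma).

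Without PD0325901 replicate 2, 7 of the 9 genes passed, and without untreated replicate 2 only 4 did, with *Dusp4*, *Dusp5*, *Spry2* and *Spred3* above the threshold at adjusted p of 0.0661 to 0.152 and log2 fold changes of -1.45 to -2.01. In these fits the remaining library of the group is assumed to vary like the other groups.

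The second comparison asks what MEK inhibition does to these genes in cells that received 4OHT. Here too 8 of the 9 fell with PD0325901, again all but *Spry1*, against 2.65% of all genes. Of the genes that passed here, 38.0% were lower, and 50.8% with quantile normalization. The median log2 fold change of the 9 was -2.28, beside 0.04 over all genes. In all 8, both 4OHT + PD0325901 libraries lay below both 4OHT day 6 libraries, as 19.9% of all genes did. This comparison shares no library with the first in its group means. Both take their spread from the same fit to all 10 libraries, so their p-values are not independent.

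*Dusp6* was 48.6 and 44.7 FPKM on 4OHT day 6 and 5.43 and 6.81 with 4OHT + PD0325901. Its log2 fold change of -2.92 (SE 0.38, adjusted p = 0.00611, limma) was within 0.1 of the value without 4OHT. *Dusp5* was 35.6 and 31.1 FPKM against 5.04 and 5.34, a change of -2.66 (SE 0.34, adjusted p = 0.0053, limma). *Dusp4* was 2.60 and 3.23 FPKM on 4OHT day 6, so this comparison had more fragments behind it, and 0.415 and 0.247 with 4OHT + PD0325901. It fell by 2.83 (SE 0.31, adjusted p = 0.00282, limma) to 11.4% of the mean on 4OHT day 6.

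*Spry4* was 2.80 and 4.43 FPKM on 4OHT day 6 and 0.194 and 0.376 with 4OHT + PD0325901. It fell by 3.28 (SE 0.41, adjusted p = 0.00511, limma) and kept 7.88% of the level on 4OHT day 6, where without 4OHT it had kept 0.905% of the untreated level. The latter share rests on 0.0992 and 0.0169 FPKM with PD0325901, below the pseudocount of 0.1. *Spry2* was 14.4 and 13.7 FPKM against 3.28 and 5.13, a change of -1.75 (SE 0.34, adjusted p = 0.0272, limma). *Spry1* was 2.27 and 2.58 FPKM against 1.91 and 2.77, and the groups overlapped. Its log2 fold change was -0.07 with a 95% interval of -0.82 to 0.68.

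*Spred2* was 13.7 and 15.6 FPKM on 4OHT day 6 and 2.31 and 3.71 with 4OHT + PD0325901, a change of -2.28 (SE 0.23, adjusted p = 0.00234, limma). *Spred1* was 13.2 and 15.9 FPKM against 5.90 and 7.47, and fell by 1.11 (SE 0.15, adjusted p = 0.0071, limma). *Spred3* was 2.11 and 2.54 FPKM against 0.497 and 0.839, and fell by 1.69 (SE 0.27, adjusted p = 0.0138, limma). When only the 4 libraries compared entered the fit, 2 of the 9 passed, *Dusp5* and *Dusp6*, and 103 genes passed in all, against 787 with all groups in the fit. The log2 fold changes are the same in that fit by construction.

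The interaction term asks directly whether the PD0325901 effect differed with 4OHT. No member passed (limma), 1 had an unadjusted p under 0.05, and 0.743% of all genes passed. The largest value was that of *Spry4*, 2.14 (SE 0.58, adjusted p = 0.152, limma), with a 95% interval of 0.79 to 3.49 before any adjustment. It rests in part on PD0325901 libraries below the pseudocount, and it ran from 0.98 to 3.24 under the alternatives. For *Dusp6* the difference was -0.07 with an interval of -1.34 to 1.20, and for *Spred2* it was 0.32 with an interval of -0.45 to 1.09. Without PD0325901 replicate 2, *Dusp5* passed, at -1.16 with an adjusted p of 0.0496.

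**Figure D2:**
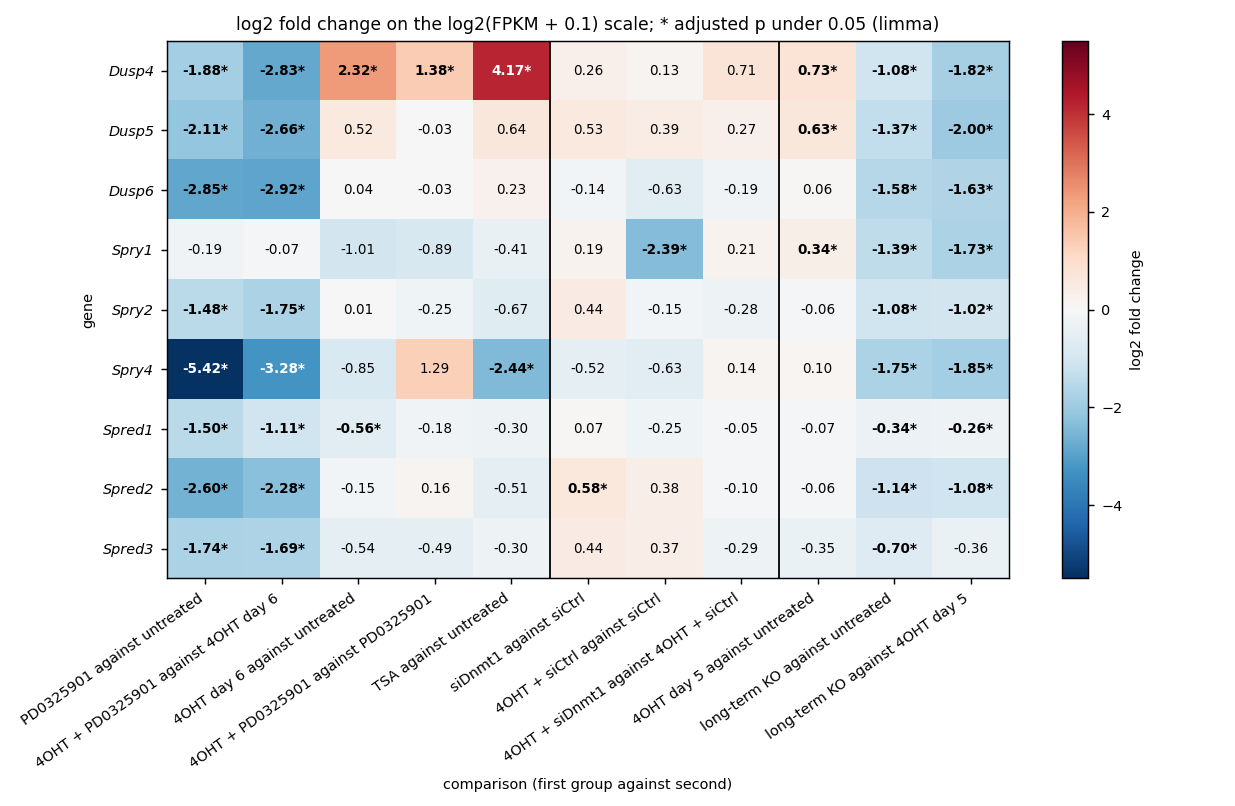
Log2 fold changes of the 9 genes (rows) in 11 comparisons (columns), on the log2(FPKM + 0.1) scale, with the inhibitor, siRNA and total RNA experiments separated by vertical lines. Stars mark an adjusted p under 0.05. The PD0325901 columns and the long-term KO columns are blue in nearly every row, whereas the other columns hold at most 3 stars each.

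Genes of the pathway outside the 9 were sorted into 4 lists. Of 18 genes of the core of the pathway, from adaptors to ERK, 17 were tested. With PD0325901, 1 fell and 4 rose, where 7.78% of all genes fell and 5.94% rose, and the list's median was 0.10. *Mapk3*, which encodes an ERK, fell by 0.52 (adjusted p = 0.0379, limma). *Ptpn11*, a phosphatase that promotes Ras activation, *Hras* and the Raf kinase gene *Braf* rose, with log2 fold changes of 0.48, 1.03 and 1.22. With 4OHT + PD0325901 against 4OHT day 6, 1 gene rose and none fell (limma, 0 of them lower at an unadjusted p under 0.05 too), and the median was 0.15. Over all genes, 2.65% fell and 4.32% rose there. *Mapk3*, *Ptpn11*, *Hras* and *Braf* did not pass there, with values of 0.19, 0.14, 0.69 and 0.83.

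Of the 9 other MAP kinase phosphatases, none passed in the lower direction and 2 in the higher, in both PD0325901 comparisons (limma, with 0 and 1 lower at an unadjusted p under 0.05). These were *Dusp8* and *Dusp10*, phosphatases with a preference for JNK and p38. *Dusp8* had log2 fold changes of 1.19 without and 1.27 with 4OHT, and *Dusp10* of 1.24 and 0.80. The medians of this list were 0.53 and 0.33, above zero where those of the 9 feedback genes were at -1.88 and -2.28.

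Of 10 other brakes on receptor signalling, 9 were tested, and 3 fell with PD0325901 in each comparison. *Errfi1*, an inhibitor of the epidermal growth factor receptor, was 76.8 FPKM in untreated cells and 3.66 with PD0325901, a log2 fold change of -4.36 (adjusted p = 1.72e-05, limma). *Rasa1*, a Ras GTPase-activating protein, fell by 1.42, and *Lrig1*, a receptor inhibitor, fell by 1.25. With 4OHT the values were -2.82, -1.57 and -1.29, and all 3 passed.

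Of 23 ERK response genes, 8 fell and 1 rose with PD0325901, and 7 fell with 4OHT + PD0325901. The medians were -0.65 and -0.78. *Etv4*, an Ets factor, was 14.5 FPKM in untreated cells and 0.0691 with PD0325901, a change of -6.46 (adjusted p = 1.09e-05, limma), and fell by 6.31 with 4OHT. *Etv5*, of the same subfamily, fell by 4.85 and, with 4OHT, fell by 4.44. *Fosl1*, an AP-1 subunit, was listed at 0 in both PD0325901 libraries and at 6.67 and 6.00 FPKM in the untreated ones, and it was also listed at 0 in TSA replicate 2, so no fold is given, although it counts among the 8. *Epha4*, an ephrin receptor, rose by 3.32 from a mean of 0.319 FPKM, and at 1.40 did not pass with 4OHT.

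**Figure D3:**
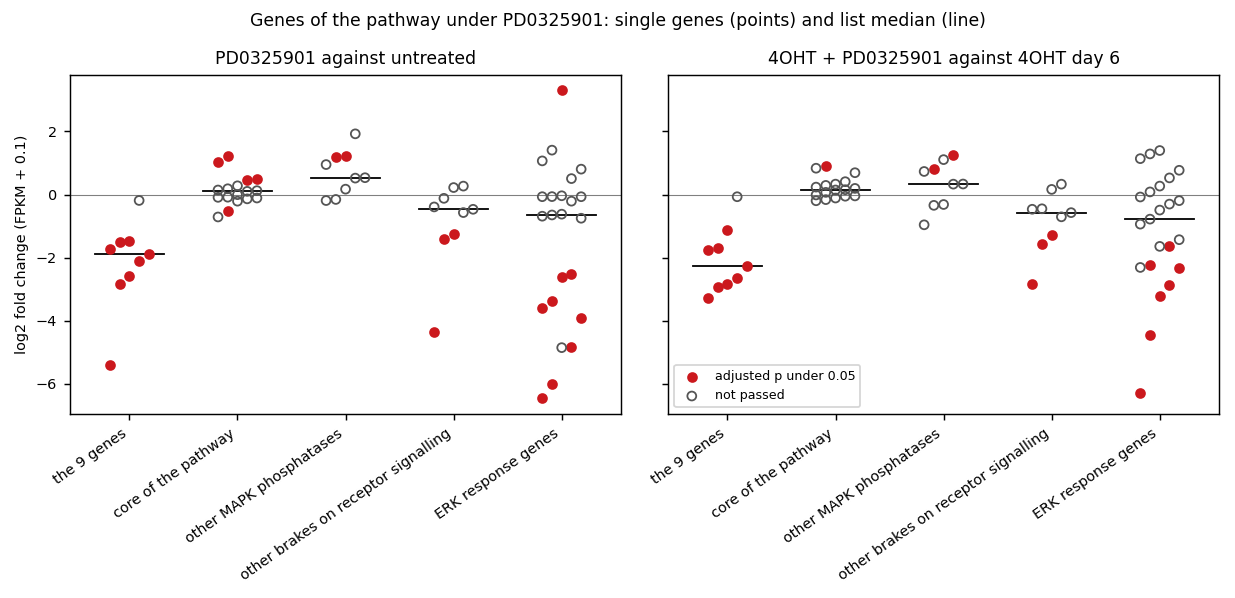
Log2 fold changes under PD0325901 without 4OHT (left) and with 4OHT (right) for the 9 feedback genes and 4 lists of pathway genes. Filled points passed at an adjusted p under 0.05, open points did not, and lines are medians. The 9 genes sit below zero with a median of -1.88 and -2.28, while the core of the pathway is centred near zero with 0.10 and 0.15.

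Across the 10 inhibitor libraries, the tested gene whose log2 level followed *Dusp6* most closely was another member, *Dusp5*, with a Pearson r of 0.987. Outside the 9, the closest were *Etv5* (r = 0.985), *Gcnt4* (0.980), *Rtel1* (0.973), *Nup85* (0.965) and *BC030500* (0.964). For *Spry4* they were *Eps8* (r = 0.970), *Ank* (0.959), *Pola1* (0.941), *Zfp106* (0.934) and *Steap1* (0.932). *Spred2* had an r of 0.944 with *Dusp6* and 0.942 with *Spry4*, and *Spry1* had 0.257 and 0.155. These correlations describe 10 libraries that share 5 treatments, and largely restate the separation of PD0325901 libraries from the rest.

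The effect of 4OHT alone at day 6, in the inhibitor experiment, reached fewer of these genes. *Dusp4* rose and *Spred1* fell, 2 of 9, where 25% of all genes passed. *Dusp4* went from 0.509 and 0.491 FPKM to 2.60 and 3.23, a log2 fold change of 2.32 (SE 0.31, adjusted p = 0.00269, limma). *Spred1* went from 21.5 and 21.4 FPKM to 13.2 and 15.9, a change of -0.56 (SE 0.15, adjusted p = 0.0338, limma), and lost its call without 4OHT day 6 replicate 1 or without either untreated library. *Spry1* had 48.6% of its untreated mean and did not pass, at -1.01 (SE 0.32, adjusted p = 0.0563, limma). Its groups did not overlap, but neither did those of 68.7% of all genes, in either direction, and 6 of the 9 members were so separated. *Dusp6* (0.04) and *Spry2* (0.01) were level with untreated cells, with 95% intervals of -0.86 to 0.93 and -0.79 to 0.82.

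Under MEK inhibition, 4OHT + PD0325901 against PD0325901, *Dusp4* alone rose, by 1.38 (SE 0.31, adjusted p = 0.0356, limma), where 8.18% of all genes passed. This value rests on 0.415 and 0.247 FPKM against 0.0327 and 0.0999, and the call was lost on leaving out any of the 4 libraries. Without PD0325901 replicate 2 the change was 1.67 with an adjusted p of 0.0555. *Spry4* had a similar change of 1.29 that did not pass (adjusted p = 0.0995, limma).

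With TSA, *Dusp4* rose and *Spry4* fell, 2 of 9, where 55.9% of all genes passed. *Dusp4* reached 9.90 and 11.6 FPKM, its highest level in this experiment, and its log2 fold change was 4.17 (SE 0.31, adjusted p = 3.64e-05, limma). *Spry4* was 0.842 and 1.42 FPKM with TSA, a change of -2.44 (SE 0.41, adjusted p = 0.00161, limma). *Dusp6*, at 43.7 and 65.7 FPKM, straddled the untreated libraries. Of 4 blood markers only *Cd68* reached 1 FPKM, and the summed level of the list was 60.6 to 67.0 FPKM with TSA against 4.27 to 4.90 in untreated cells. Of 4 epithelial markers, 2 reached 1 FPKM with TSA, with sums of 31.3 to 32.4 against 1.28 to 1.39 FPKM. *Cd3e* was at 0 in all 10 libraries. The part of these markers in the TSA results was not tested.

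In the siRNA experiment, *Dnmt1* itself fell by 2.75 with siDnmt1. *Spred2* was the member that passed, where 8.08% of all genes did. It was 12.6 and 12.1 FPKM with siCtrl and 17.7 and 19.4 with siDnmt1, a log2 fold change of 0.58 (SE 0.13, adjusted p = 0.0457, limma) whose call was lost on leaving out any of the 4 libraries. The summed level of the epithelial markers, in which *Krt8* and *Krt18* lead, was 55.4 to 55.8 FPKM with siDnmt1 and 0.677 to 0.986 with siCtrl, and its part in the result was not tested. *Spry4*, at 7.45 and 6.69 FPKM with siCtrl and 4.77 and 5.02 with siDnmt1, did not pass (-0.52, adjusted p = 0.481, limma), and its interval in siCtrl replicate 1 is wide, from 0 to 19.2 FPKM.

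With 4OHT + siCtrl against siCtrl, *Spry1* was the member that passed, where 13.7% of all genes did. It was 10.1 and 11.6 FPKM with siCtrl and 3.32 and 1.17 with 4OHT + siCtrl, a log2 fold change of -2.39 (SE 0.58, adjusted p = 0.0454, limma). Its call was lost with only the groups compared (adjusted p = 0.114, limma), with no filter on low values (0.154) and with quantile normalization (0.0537). It was also lost without siCtrl replicate 1 or 2, where the change was -2.49 or -2.30. The 4OHT + siCtrl replicates, which stood apart in *Irf7*, also differed in *Dusp6* (64.3 and 30.2 FPKM), *Dusp4* (4.59 and 1.88) and *Spry4* (6.99 and 2.92). Without replicate 2, *Spry1* had a change of -1.67 and an adjusted p of 0.0767, and *Spred2* passed at 0.49. Without replicate 1, *Dusp6*, *Spry4*, *Spred1* and *Spry1* passed, all lower. No member passed between 4OHT + siDnmt1 and 4OHT + siCtrl or in the interaction of siDnmt1 and 4OHT, where 2.05% and 0.199% of all genes did (limma). At an unadjusted p under 0.05 the members numbered 0 and 1. Without 4OHT + siCtrl replicate 2, *Dusp6* passed in the former, at -0.73 with an adjusted p of 0.028.

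**Figure D4:**
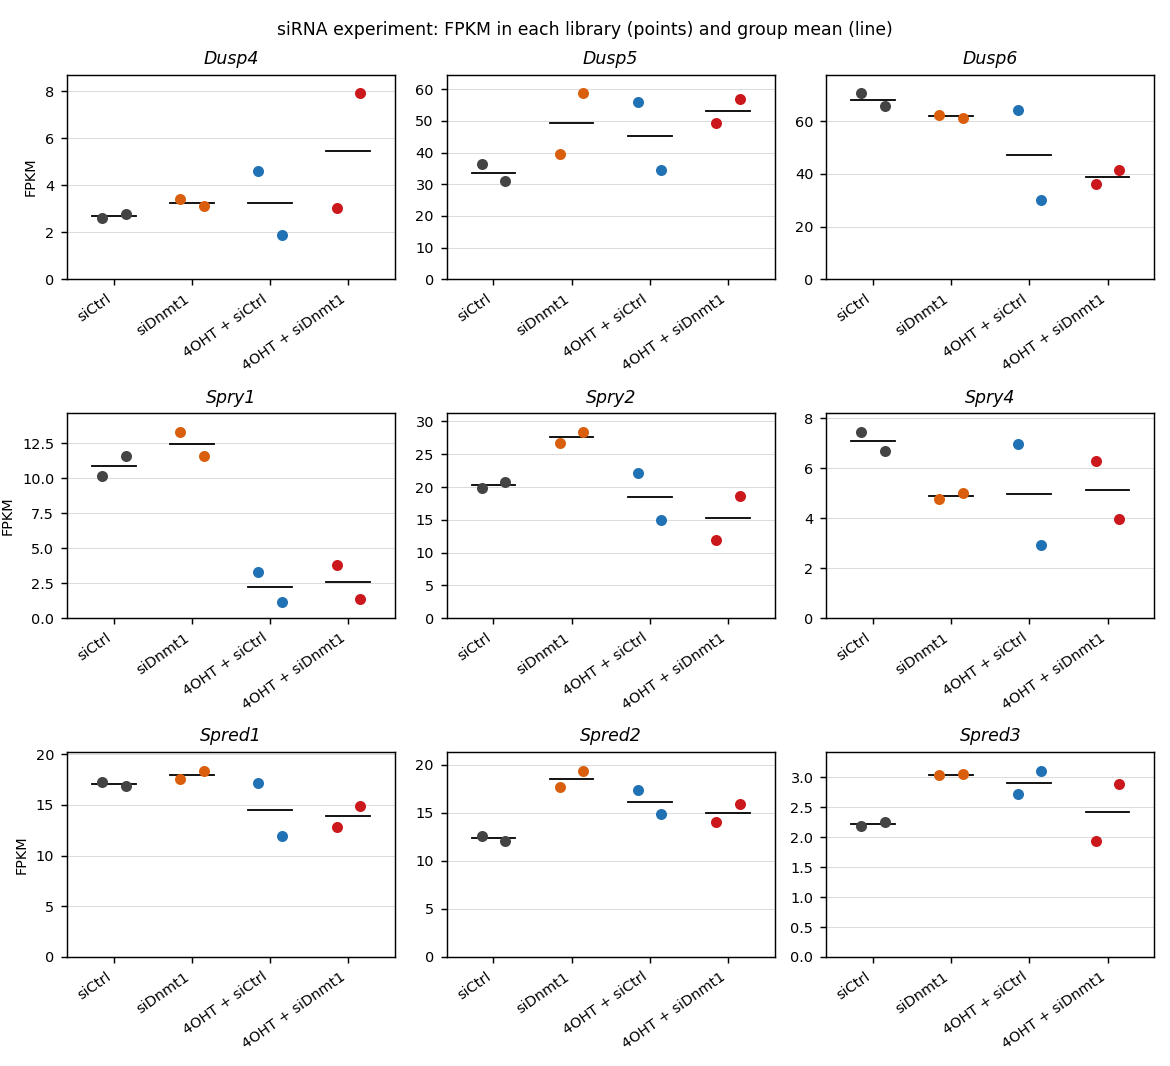
FPKM of the 9 genes in the 8 libraries of the siRNA experiment, from 0 on a linear axis that differs between panels. Points are libraries and lines are means of groups of 2. *Spry1* is low in all 4 libraries with 4OHT, at 1.17 to 3.80 FPKM, and the 4OHT + siCtrl points of *Dusp6* lie far apart.

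In the total RNA experiment the 9 genes had no common direction at day 5 after 4OHT and were all lower in long-term KO cells. At day 5, *Dusp5* and *Spry1* rose and none fell (limma, and 0 at an unadjusted p under 0.05), where 18.6% of all genes rose and 17.9% fell, and the median of the 9 was 0.06. *Dusp4*, also higher at day 5, is given apart because its day 5 level alone brought it into the test. In long-term KO cells all 9 were below the untreated cells at an adjusted p under 0.05, where 29.5% of all genes were, with a median of -1.14 beside 0.07 over all genes. No long-term KO library of any of the 9 reached an untreated library, a separation that 31.9% of all genes showed in this direction. At a fold of at least 2, 7 of the 9 fell, against 6.23% of all genes.

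At day 5, *Dusp4* was 1.33, 1.19 and 1.27 FPKM against 0.812, 0.750 and 0.612 in untreated cells, a log2 fold change of 0.73 (SE 0.14). The day 5 libraries were the only ones above 1 FPKM, so with the minimum of 1 FPKM a test of this difference is not independent of the choice. With no minimum its adjusted p was 0.0101 (limma). *Dusp5* was 20.3, 22.0 and 21.6 FPKM against 13.8, 14.2 and 13.0 and rose by 0.63 (SE 0.09, adjusted p = 0.00129, limma). *Spry1* was 3.97, 5.18 and 4.66 FPKM against 3.68, 3.50 and 3.64 and rose by 0.34 (SE 0.09, adjusted p = 0.0217, limma), a call lost on leaving out untreated replicate 2 or 3 or day 5 replicate 3. The other 6 did not pass, with values of -0.35 to 0.10. *Dusp6*, at 28.9, 29.9 and 30.0 FPKM against 28.6, 27.8 and 28.9, had the narrowest bound among the phosphatases, a 95% interval of -0.03 to 0.14.

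In long-term KO cells, *Dusp6* was 9.73, 9.60 and 9.06 FPKM, a log2 fold change of -1.58 (SE 0.04, adjusted p = 2.88e-08, limma), or 33.3% of the untreated mean. *Dusp5* was 5.11, 4.66 and 6.05 FPKM and fell by 1.37 (SE 0.09, adjusted p = 5.26e-06, limma). *Dusp4* was 0.311, 0.313 and 0.242 FPKM and fell by 1.08 (SE 0.14). For all 3 phosphatases each long-term KO library lay below every untreated and every day 5 library.

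*Spry4* had the largest change of the 9, as under PD0325901, from 2.65, 2.87 and 2.71 FPKM to 0.678, 0.729 and 0.829. It fell by 1.75 (SE 0.08, adjusted p = 8.03e-07, limma). Under the alternatives its log2 fold change ran from -1.92 to -1.10 and that of *Dusp6* from -1.64 to -1.49, so its rank depends on the setting. *Spry1*, which did not pass under PD0325901, was 1.31, 1.29 and 1.34 FPKM and fell by 1.39 (SE 0.09, adjusted p = 4.62e-06, limma). *Spry2* was 3.80, 4.08 and 3.92 FPKM against 7.41, 9.44 and 8.56 and fell by 1.08 (SE 0.15, adjusted p = 0.00035, limma).

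*Spred2* was 2.78, 2.85 and 2.97 FPKM against 5.72, 6.62 and 7.12 and fell by 1.14 (SE 0.08, adjusted p = 7.95e-06, limma). *Spred1* changed least, from 20.1 to 20.3 FPKM in untreated cells to 15.6 to 16.2, and fell by 0.34 (SE 0.03, adjusted p = 4.58e-05, limma). It was the most abundant of the 9 in long-term KO cells, where *Dusp6* was so in untreated cells, and in each case the libraries of these genes did not overlap. *Spred3* was 2.49, 2.02 and 1.95 FPKM in untreated cells and 1.12 and 1.45 in long-term KO replicates 1 and 3. In replicate 2 its locus was joined to that of *Psmd8* and was left out, so *Spred3* was fitted on 8 libraries. It fell by 0.70 (SE 0.17, adjusted p = 0.00834, limma), and its call was lost without long-term KO replicate 1.

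Long-term KO cells were also below day 5 cells in 8 of the 9 genes, where 30.3% of all genes were. *Dusp4* is among the 8, but its day 5 level alone brought it into the test. With the minimum of 1 FPKM, its test here is therefore not independent of that choice. With no minimum, 8 of the 9 also passed, and the adjusted p of *Dusp4* was 5.94e-05 (limma). Among the 8, the values ran from -0.26 for *Spred1* to -2.00 for *Dusp5*. *Spred3* did not pass (-0.36, adjusted p = 0.101, limma). This comparison shares its long-term KO libraries with the one against untreated cells.

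**Figure D5:**
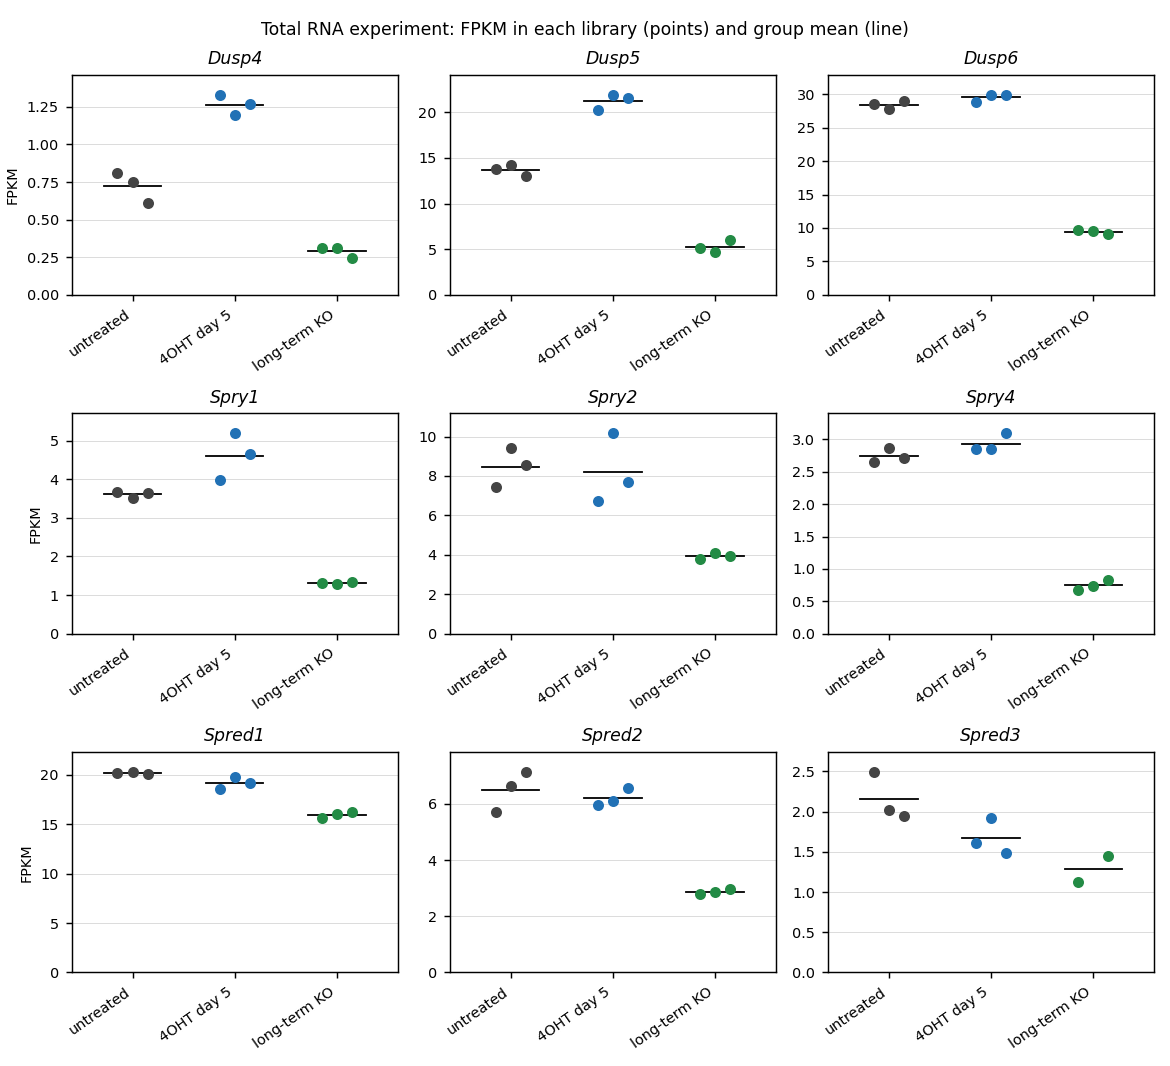
FPKM of the 9 genes in the 9 libraries of the total RNA experiment, from 0 on a linear axis that differs between panels. Points are libraries and lines are group means (n = 3, and 2 for *Spred3* in long-term KO). All long-term KO points lie below all untreated points, and *Dusp4*, *Dusp5* and *Spry1* are highest at day 5.

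In long-term KO cells, where 29.5% of all genes fell and 37.8% rose, the core of the pathway had 4 genes lower and 7 higher of 17 tested, with a median of 0.07. *Mapk3* and *Braf* rose, by 1.12 and 1.01, *Ptpn11* fell by 0.13, and *Hras* did not pass (0.06). The other MAP kinase phosphatases had 5 lower and 2 higher of 8, with a median of -1.19. *Dusp10* rose by 1.53 and *Dusp8* fell by 0.89. Of 10 other brakes on receptor signalling, 4 fell and 2 rose. *Errfi1* fell by 4.14 and *Lrig1* fell by 1.37, whereas *Rasa1* did not pass (-0.21). Of 21 ERK response genes, 15 fell and 4 rose, with a median of -0.92. *Etv4* fell by 3.39 and *Etv5* fell by 2.21. The 4 that passed as higher were the AP-1 subunit genes *Fos* (1.65), *Fosb* (1.94) and *Junb* (0.47), and *Etv1* (1.65), of the same subfamily as *Etv4* and *Etv5*. *Etv1* was above 1 FPKM in the long-term KO libraries alone, which brought it into the test. A test of its difference is therefore not independent of that choice, and it counts among the 4 with this limit.

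Set side by side, *Spry4* was the gene with the lowest log2 fold change in both PD0325901 comparisons and in long-term KO cells against untreated cells, and *Spred1* was the one with the smallest of those that passed in the latter and with 4OHT + PD0325901. The rank of *Spry4* was not kept under every alternative in long-term KO cells or with 4OHT + PD0325901. In the latter its value ran from -3.65 to -1.83 and that of *Dusp6* from -3.08 to -2.75. *Spry1* was at -0.19 and -0.07 with PD0325901 and at -1.39 in long-term KO cells. Within the inhibitor and total RNA experiments, with the siRNA experiment set aside, *Dusp4*, *Dusp5* and *Spry1* had calls in both directions. *Dusp4* fell in both PD0325901 comparisons and in long-term KO cells, and rose with 4OHT at day 6 and with TSA. It also rose with 4OHT + PD0325901 against PD0325901, a call lost on leaving out any library compared. *Dusp5* fell in both PD0325901 comparisons and in long-term KO cells and rose at day 5, and *Spry1* rose at day 5 and fell in long-term KO cells. These comparisons come from 2 experiments with different library preparations, and the differences between them were not tested.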

How the data were processed

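RNA was sequenced by the authors from 27 libraries of *Setdb1* cKO iMEFs. Reads were aligned by the authors to mm9 with TopHat2 2.0.12, with 1 position kept where a read had several, and each library was assembled apart with Cufflinks, which gave the deposited FPKM per locus with its confidence interval. Total RNA was depleted of ribosomal RNA. The paper gives paired-end reads for total RNA and single reads for the siRNA libraries, and the layout of the inhibitor libraries is not given in the sources used here. Strand use in the counting is not given either, so reads of overlapping antisense transcripts cannot be told apart. The deposited tables of the authors' own Cuffdiff comparisons were not used.

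Genes were taken by symbol in the siRNA and inhibitor files. Total RNA loci carry no symbols and were matched by position, with at least 95% of the gene inside the locus (80% as an alternative), and 95.7% or more of the loci checked by accession gave the same symbol. A locus joined to another gene was set to missing, symbols with several loci (64) were left out, and a gene could miss 1 library. The fragments behind a value were estimated from its FPKM and upper confidence bound, and depth from genes with 1 exon, so depth limits low genes. This estimate takes the bound as counting error alone, which does not hold everywhere. For *Spry4* it gave 1.62 fragments in siCtrl replicate 1 (7.45 FPKM) and 474 in siCtrl replicate 2 (6.69 FPKM). With limma 3.58.1 in R 4.3.3, a model of log2(FPKM + 0.1) was fitted to each experiment, all its groups together, with a variance trend and Benjamini-Hochberg adjustment, and a gene needed 1 FPKM or more in a number of libraries equal to the smallest group size. The fit was tested on simulated data. In all, 11 comparisons and 2 interactions were made. Python 3.11.15 ran the other steps, with matplotlib 3.10.9, scipy 1.17.1, pandas 2.3.3 and numpy 2.4.6. Promoters are those of RefSeq on GRCm38.p6, whose coordinates were not converted to mm9. Exact intervals of fragment ratios have a 95% level and take implied fragments as counts.

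The genes, the 4 pathway lists and the tests were chosen with earlier results of these data known. Genes named are all 9 members, the 3 lowest and 3 highest log2 fold changes of each list that passed with PD0325901 against untreated cells, and the 5 genes outside the 9 with the highest correlation with *Dusp6* and with *Spry4*. *Setdb1*, *Dnmt1*, *Irf7*, *Fos*, *Fosb*, *Junb*, *Etv1* and single marker genes were named after their values were seen. Alternatives were quantile normalization, median-ratio scaling, a minimum of 5 FPKM or none, pseudocounts of 1 and 0.01, the compared groups alone, the replicate number as a block, a fold of at least 2, the 80% cover, and each library left out.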

Additional observations from a re-analysis of the deposited data

Results flagged for a closer look

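For *Spry1* and *Spred3*, a group that received 4OHT lay wholly on one side of its control group in one experiment. In another experiment such a group lay wholly on the other side, so these changes ran in opposite directions. In the siRNA experiment the group meant is 4OHT + siCtrl, set against siCtrl. Such a separation, in either direction, is common with groups of this size. It was shown by 50.4% of all genes at day 5, 58.8% with 4OHT + siCtrl and 68.7% on 4OHT day 6. The 4OHT + siCtrl replicates stood far apart in *Irf7*, as given above. The log2 fold change of *Spry1* was 0.34 at 4OHT day 5 in total RNA, which passed (limma, adjusted p = 0.0217), -2.39 with 4OHT + siCtrl, which passed (adjusted p = 0.0454), and -1.01 on 4OHT day 6 in the inhibitor experiment, which did not (adjusted p = 0.0563). Both calls were lost under some of the alternatives, as given above. The log2 fold change of *Spred3* was -0.35 at day 5, 0.37 with 4OHT + siCtrl and -0.54 on day 6, and none of these passed. In 4OHT + siDnmt1 cells *Spred3* was 1.93 to 2.89 FPKM, wholly below the 3.04 to 3.06 FPKM of siDnmt1. Its direction with 4OHT thus also differed within the siRNA experiment. The total RNA experiment differs from the others in library preparation and day, whereas the siRNA and inhibitor experiments were both sampled at day 6. The differences between the experiments were not tested. No group holds 4 libraries, so no test for single outlying libraries was made.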

How the results depend on the processing

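The 8 genes that fell with PD0325901 kept their direction under every alternative in both comparisons, as did the 9 in long-term KO against untreated cells. The count of genes passing changed by over 1.5 times as follows, and the cause of these changes was not tested. With only the groups compared in the fit it was 2 for 4OHT + PD0325901 against 4OHT day 6, 4 for 4OHT day 6 against untreated, 0 for 4OHT + PD0325901 against PD0325901, 6 for TSA, 4 for siDnmt1 and 0 for 4OHT + siCtrl. With no filter on low values it was 1 for 4OHT day 6 and 0 for 4OHT + PD0325901 against PD0325901, siDnmt1 and 4OHT + siCtrl. With quantile normalization it was 0 for 4OHT + PD0325901 against PD0325901 and 4OHT + siCtrl, and 4 for TSA. With a pseudocount of 1 it was 0 for 4OHT + PD0325901 against PD0325901. At a fold of at least 2 it was 1 for 4OHT day 6, 0 for siDnmt1 and 0 for day 5. At 5 FPKM, where only 5 of the 9 were tested, it was 1 for day 5 and 5 in both long-term KO comparisons. On leaving out single libraries, the counts were 4 to 8 for PD0325901, 6 to 8 for 4OHT + PD0325901 against 4OHT day 6, 1 to 2 for 4OHT day 6, 0 for 4OHT + PD0325901 against PD0325901, 0 to 1 for its interaction, 0 for siDnmt1, 0 to 4 for 4OHT + siCtrl and 0 to 1 for 4OHT + siDnmt1. Over all genes, PD0325901 against untreated gave 1550 calls, 1004 without a filter, 820 at a fold of at least 2 and 369 to 1314 without single libraries. For 4OHT + PD0325901 against 4OHT day 6, the counts were 787, 504, 427, 337 to 609 and, with only the groups compared, 103.

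Of 117 log2 fold changes of members, 32 changed sign on leaving out a library, and 0 of these had passed. They ran as follows. PD0325901 against untreated, *Spry1* -0.62 to 0.24, and 4OHT + PD0325901 against 4OHT day 6, *Spry1* -0.33 to 0.18. 4OHT day 6 against untreated, *Dusp6* -0.024 to 0.095, *Spry2* -0.021 to 0.051. 4OHT + PD0325901 against PD0325901, *Dusp5* -0.64 to 0.58, *Dusp6* -0.68 to 0.61, *Spry2* -0.78 to 0.27, *Spred2* -0.17 to 0.49. Interaction of PD0325901 and 4OHT, *Dusp5* -1.16 to 0.062, *Dusp6* -0.72 to 0.58, *Spry1* -0.31 to 0.55, *Spry2* -0.80 to 0.26, *Spred2* -0.013 to 0.64, *Spred3* -0.28 to 0.37. TSA, *Dusp6* -0.059 to 0.53. 4OHT + siCtrl against siCtrl, *Dusp4* -0.49 to 0.75, *Spry2* -0.43 to 0.13, *Spred1* -0.51 to 0.0047. 4OHT + siDnmt1 against 4OHT + siCtrl, *Dusp5* -0.077 to 0.62, *Dusp6* -0.73 to 0.36, *Spry1* -0.50 to 0.93, *Spry2* -0.60 to 0.038, *Spry4* -0.48 to 0.75, *Spred1* -0.31 to 0.21, *Spred2* -0.21 to 0.010. Interaction of siDnmt1 and 4OHT, *Dusp4* -0.23 to 1.13, *Dusp5* -0.60 to 0.090, *Dusp6* -0.60 to 0.49, *Spry1* -0.70 to 0.73, *Spred1* -0.38 to 0.14. Day 5, *Spry2* -0.23 to 0.067, *Spred2* -0.15 to 0.010. Other settings changed the sign of 5, none of which had passed. These were *Dusp6* on 4OHT day 6 with quantile normalization (-0.055), and, in the interaction with PD0325901 under median-ratio scaling and quantile normalization, *Spry1* (-0.0017 and -0.11) and *Spred3* (-0.063 and -0.39). *Spry1* changed with 4OHT + siDnmt1 under quantile normalization (-0.00017), and in the siDnmt1 interaction with a pseudocount of 1 (-0.033), median-ratio scaling (-0.056) and quantile normalization (-0.29).

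Replicate numbers are shared between groups, but nothing says that they pair libraries. Deviations of libraries with the same number correlated at 0.206 to 0.259 among PD0325901, 4OHT day 6 and 4OHT + PD0325901, and at -0.0674 to 0.12 in all other pairs of groups. With the number as a replicate block, the members passing stayed at 8 in both PD0325901 comparisons and at 9 in long-term KO, and became 0 for siDnmt1 (*Spred2*, adjusted p = 0.0864, limma) and 3 for TSA.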

Other observations

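In the total RNA libraries, the assembly also placed separate, shorter loci inside the 9 genes, which the levels above do not include. They numbered 1, 2 and 2 in the untreated libraries, 4, 4 and 6 at 4OHT day 5 and 4, 1 and 3 in long-term KO. At day 5, 5 of them lay at *Dusp6*, in all 3 libraries and at up to 7.53 FPKM, and 5 at *Dusp5*, in 2 libraries and at up to 4.77 FPKM, whereas in untreated cells 4 lay at *Spry2*. These values were looked at after the other results, and without strand they cannot be assigned to the genes or to antisense transcripts.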
